A study of Mus musculus with 4 samples.

Results

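The genes described here are 10 transcription factor genes of the ETS family that act downstream of, or next to, the kinase ERK: Ets1, Ets2, Elk3, Elk4, Etv4, Etv5, Etv6, Gabpa, Fli1 and Elf1. They were taken by symbol from the 54752 genes of the count tables as a set named with earlier results of these data known, and all 10 had enough counts to be among the 14330 genes tested. Naïve CD4+ T cells from mouse spleen were activated through CD3 and CD28 under conditions that skew toward T follicular helper (Tfh) cells, and after 3 days the viable cells were sorted again for RNA-seq, with 2 libraries from WT mice and 2 from Mek1/2-tKO mice. The Mek1/2-tKO mice carried Cd4-Cre and were homozygous for floxed Map2k1 (Map2k1 fl/fl) and for floxed Map2k2 (Map2k2 fl/fl), made on a C57BL/6 background, and both groups received the same stimulation, IL-6 and blocking antibodies to TGF-β, IL-4, IFN-γ and IL-2. Cd4-Cre deletes in cells that have expressed Cd4, which as a rule means the T lineage. The sources used here do not tie an age to the mice of these libraries or say whether a library holds 1 animal or several. Nothing says that the libraries of a genotype came from separate cultures, so the p values measure only the spread between these libraries.

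ETS factors bind DNA through a conserved winged helix that reads a GGAA core. In activated T cells the T-cell receptor switches on RAS, RAF, MEK1/2 and ERK in turn, and ERK phosphorylates several ETS proteins and changes their activity. ELK3 and ELK4 are ternary complex factors that sit on promoters together with SRF, ETS1 and ETS2 carry a Pointed domain next to their ERK site, ETV4 and ETV5 belong to the PEA3 group, and ETV6 is a repressor. The counts below measure RNA, and they do not show how much of each protein was phosphorylated.

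The targeted genes were read first. Map2k1 had 182 and 187 CPM (counts scaled to library size and TMM factor) in WT and 97.9 and 105 CPM in Mek1/2-tKO, at a log2 fold change of -0.86 (standard error 0.08, edgeR adjusted p = 1.29e-06). Map2k2 had 154 and 165 CPM in WT and 172 and 182 CPM in Mek1/2-tKO, and it did not pass the test. Counts were made over whole genes, so transcripts that lack the floxed exons still add to them, and Map2k2 does not check the labels. The libraries held 16330802 to 18931090 counts. Other cell types moved with the genotype. In Mek1/2-tKO 9 of 10 markers of the B lineage were higher and 1 (Fcer2a) lower, and the summed level of the list went from 1390 to 1414 CPM in WT to 6415 to 6473 CPM. All 6 NK-cell markers, both CD8 markers and the 2 gamma-delta markers found under the symbols searched (of 5) were higher, and so were the 6 tested myeloid markers of 8, whose sum was 1.33 to 1.97 CPM in WT and 16.0 to 24.4 CPM in Mek1/2-tKO. Among the myeloid markers, Adgre1 and S100a8 were at 0 in both WT libraries. Of 9 T-cell markers, 5 were lower and 4 were not called by the rule given below. Of those 4, 1 had both Mek1/2-tKO libraries above WT. The sum of the 9 went from 1986 to 2004 CPM in WT to 1220 to 1372 CPM in Mek1/2-tKO. Cd4 itself, which defines the labelled cells, had 297 and 289 CPM in WT and 18.8 and 25.1 CPM in Mek1/2-tKO, while the T-cell receptor gene Trbc2 had 393 and 370 CPM in WT and 397 and 351 CPM in Mek1/2-tKO. The libraries labelled CD4+ from Mek1/2-tKO mice thus held little Cd4 RNA. None of these markers was at 0 in a Mek1/2-tKO library. The part of these cells in the results below was not tested, and in bulk RNA fewer cells of a type and less RNA per cell cannot be told apart.

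Genes that changed at least 1.5-fold (0.585 on the log2 scale) with an adjusted p under 0.05 were called, which 35.8% of all tested genes were. By this rule Ets2, Etv6, Etv4 and Elk3, 4 of the 10 factors, were lower in Mek1/2-tKO cells, where 16.4% of all tested genes were called lower. None was called higher by edgeR or by DESeq2, where edgeR called 19.3% of all tested genes higher. At an unadjusted p under 0.05, 1 factor (Fli1) was higher and 7 were lower, where 29.9% of all tested genes were higher and 29.6% lower. With the fold change left aside, 6 factors were lower and 1 higher at an adjusted p under 0.05, a threshold that 55% of all tested genes passed. In 8 of the 10 factors both Mek1/2-tKO libraries lay below both WT libraries, against 38.8% of all tested genes, and in 1 (Fli1) both lay above, against 39.5%. Taken in either direction, 78.3% of all tested genes had libraries that did not overlap. The median log2 fold change of the 10 factors was -0.56, beside 0.015 for all genes tested. The sizes ran from a 3.08-fold decrease of Ets2 to a log2 fold change of 0.58 for Fli1, just under the fold change threshold. The plot of CPM by library shows these values gene by gene.

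**Figure D1:**
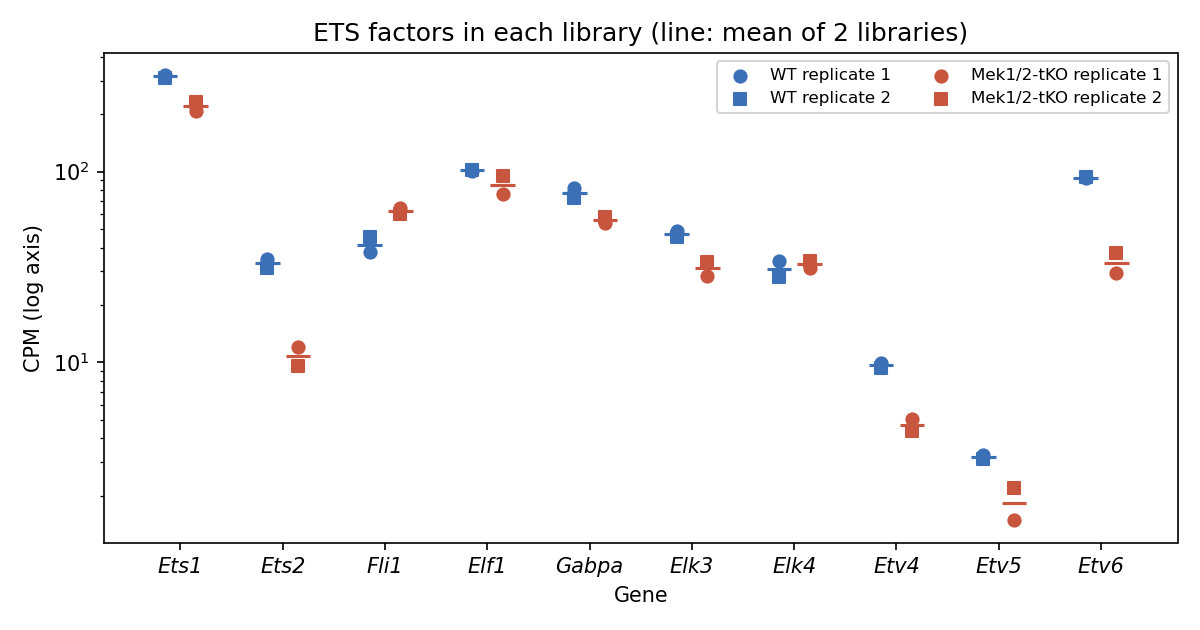
CPM (log axis) of the 10 ETS factors in each of the 4 libraries, with circles for replicate 1, squares for replicate 2 and a line at the mean of each genotype. The Mek1/2-tKO libraries lie below the WT libraries for 8 genes and above them for Fli1, and they overlap the WT libraries for Elk4.

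Ets1 and Ets2 are close relatives, and both are classical ERK substrates. Ets2 (ENSMUSG00000022895.16, GRCm38 chromosome 16, 95702075 to 95721051, plus strand) had 34.8 and 31.4 CPM in WT and 12.1 and 9.52 CPM in Mek1/2-tKO. The genotypes did not overlap, and the Mek1/2-tKO libraries were far below both WT libraries. Its log2 fold change of -1.62 (standard error 0.16, edgeR adjusted p = 1.43e-06) was the lowest of the 10 and lay at percentile 3.04 of all genes tested. Ets1 (ENSMUSG00000032035.15, chromosome 9, 32636221 to 32757820, plus strand), which is needed for normal development and activation of lymphocytes, had 320 and 312 CPM in WT and 209 and 232 CPM in Mek1/2-tKO. The libraries were again apart, but the change was smaller, at a log2 fold change of -0.52 (standard error 0.08, edgeR adjusted p = 7.57e-05). It passed the p threshold and stopped short of the fold change threshold. With library size scaling its log2 fold change was -0.60 and it was called lower, as it was without Mek1/2-tKO replicate 2 (-0.60).

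Elk3 and Elk4 encode ternary complex factors. Elk3 (ENSMUSG00000008398.15, chromosome 10, 93247414 to 93311135, minus strand), which represses SRF targets until ERK phosphorylates it, had 48.7 and 45.5 CPM in WT and 28.5 and 33.7 CPM in Mek1/2-tKO. Its log2 fold change of -0.60 (standard error 0.12, edgeR adjusted p = 8.46e-04) lay just past the fold change threshold. The call was lost without WT replicate 1 (-0.55), without Mek1/2-tKO replicate 1 (-0.48) and with a minimum of 10 counts in every library (-0.58). Elk4 (ENSMUSG00000026436.15, chromosome 1, 132007607 to 132032612, plus strand), an SRF partner known for its part in thymocyte selection, had 33.99 and 28.03 CPM in WT and 31.17 and 34.04 CPM in Mek1/2-tKO. Here the libraries of the genotypes overlapped. The log2 fold change was 0.07 with a 95% interval of -0.21 to 0.35 (edgeR adjusted p = 0.659), and its sign turned with library size scaling (-0.011), without WT replicate 2 (-0.060) and without Mek1/2-tKO replicate 2 (-0.00092).

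The PEA3 group genes Etv4 and Etv5, which follow RAS-ERK signals in many tissues, were the least abundant of the 10. Etv4 (ENSMUSG00000017724.14, chromosome 11, 101769742 to 101785371, minus strand) had 9.95 and 9.38 CPM in WT and 5.03 and 4.36 CPM in Mek1/2-tKO, from 78 to 194 counts a library. Both Mek1/2-tKO libraries lay well below WT, a 2.06-fold decrease, at a log2 fold change of -1.04 (standard error 0.22, edgeR adjusted p = 0.00143). Etv5 (ENSMUSG00000013089.15, chromosome 16, 22381309 to 22439719, minus strand) had 3.28 and 3.11 CPM in WT and 1.48 and 2.18 CPM in Mek1/2-tKO, from only 23 to 64 counts a library. Both Mek1/2-tKO values lay below both WT values, but the log2 fold change of -0.79 did not pass (standard error 0.38, 95% interval -1.62 to 0.04, edgeR adjusted p = 0.0977).

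Etv6 (ENSMUSG00000030199.16, chromosome 6, 134035700 to 134270158, plus strand), a repressor needed for blood stem cells, had 92.1 and 93.2 CPM in WT and 29.3 and 37.2 CPM in Mek1/2-tKO. The WT libraries were nearly equal, and both Mek1/2-tKO libraries lay far below them. The log2 fold change was -1.47 (standard error 0.12, edgeR adjusted p = 2.28e-07), a 2.78-fold decrease. Ets2, Etv6 and Etv4 kept their call in each of the 10 other settings, among them DESeq2 and each library left out, and these 3 also passed a fold change threshold of 2.

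The remaining factors also bind DNA in lymphocytes. Gabpa (ENSMUSG00000008976.16, chromosome 16, 84834925 to 84863779, plus strand), the DNA-binding subunit of the GA-binding protein, had 82.1 and 72.4 CPM in WT and 53.7 and 58.1 CPM in Mek1/2-tKO. Elf1 (ENSMUSG00000036461.16, chromosome 14, 79481194 to 79582494, plus strand), a lymphoid factor, had 101 and 103 CPM in WT and 76.2 and 94.7 CPM in Mek1/2-tKO. For both genes the Mek1/2-tKO libraries lay below the WT libraries, by less than 1.5-fold on average. The log2 fold change of Gabpa was -0.47 (standard error 0.10, edgeR adjusted p = 0.00174), and that of Elf1 was -0.25 (standard error 0.11, 95% interval -0.48 to -0.03, edgeR adjusted p = 0.0571). For Elf1 the Mek1/2-tKO libraries differed from each other by more than replicate 2 differed from WT, and the value moved to -0.43 when Mek1/2-tKO replicate 2 was left out and to -0.10 when replicate 1 was.

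Fli1 (ENSMUSG00000016087.13, chromosome 9, 32422204 to 32542861, minus strand), a factor of blood and endothelial cells and the neighbour of Ets1 on its chromosome, went the other way. It had 37.7 and 45.2 CPM in WT and 64.4 and 59.7 CPM in Mek1/2-tKO, so that its libraries were apart with Mek1/2-tKO above WT. Its log2 fold change of 0.58 (standard error 0.11, edgeR adjusted p = 7.09e-04) met the p threshold and came just under the required fold. It was called higher with a minimum of 10 counts in every library (0.60), without WT replicate 2 (0.72) and without Mek1/2-tKO replicate 2 (0.63). In the same libraries the NK-cell, CD8, gamma-delta and myeloid markers tested and most B-lineage markers were higher, and the T-cell sum was lower, as given above. A link of these lists to Fli1 was not tested. Of the 10 genes, 5 share exon bases with another gene, between 2.26% (Etv6) and 6.98% (Gabpa), and reads there may have been assigned elsewhere. Except for part of those of Elk4, the shared bases lie with a gene on the opposite strand. Whether the counting used the strand is not given. Ets1, Ets2, Etv4, Etv5 and Fli1 share none.

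**Figure D2:**
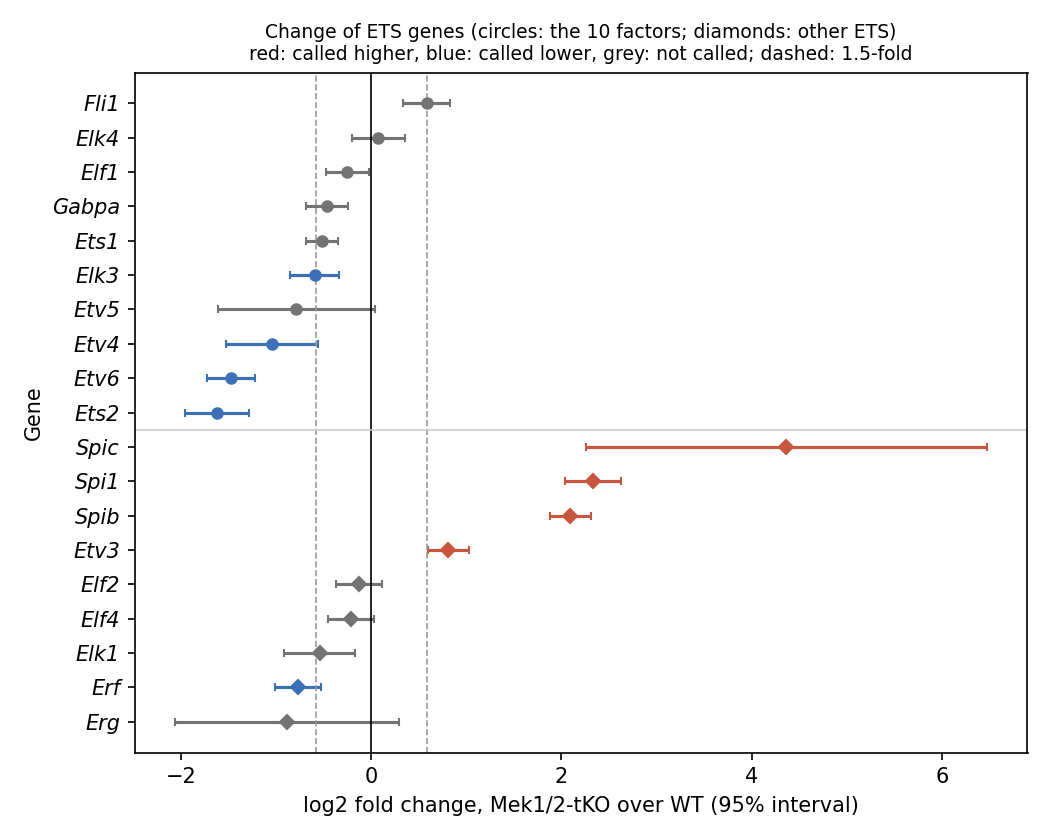
Log2 fold change of Mek1/2-tKO over WT with its 95% interval from edgeR for the 10 factors (circles) and the 9 other ETS genes that were tested (diamonds), with dashed lines at a 1.5-fold change. Ets2 (-1.62) and Etv6 (-1.47) lie farthest to the left and Fli1 (0.58) at the right among the 10, while Spic, Spi1 and Spib lie far to the right among the others, Spic with 2 and 0 counts in the WT libraries.

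Levels of the 10 factors were compared with each other per length, as RPKM (CPM per kilobase of exon). In WT cells Ets1 was the most abundant at 37.3 ± 0.73 RPKM (SD, n = 2), followed by Etv6 (15.5 ± 0.13 RPKM), Elf1 (15.1 ± 0.16 RPKM) and Gabpa (13.6 ± 1.21 RPKM). Fli1 came next at 11.9 ± 1.52 RPKM, and it overlapped Gabpa. Elk3, Ets2, Elk4, Etv4 and Etv5 followed in this order, each apart from the next, down to 0.779 ± 0.030 RPKM for Etv5. In Mek1/2-tKO cells Ets1 was still first at 26.0 ± 1.88 RPKM, but Fli1 moved from place 5 to place 2 (17.8 ± 0.96 RPKM) and Etv6 from place 2 to place 6 (5.56 ± 0.94 RPKM), where it overlapped Elk4. The summed RPKM of the 10 genes was 119 and 117 in WT and 84.0 and 91.3 in Mek1/2-tKO. Within that sum the share of Etv6 went from 13.1% to 6.32% and that of Ets2 from 4.84% to 2.14%, as means of 2 libraries. The share of Fli1 went from 10.1% to 20.4%, while Ets1 held 31.6% and 29.7%. Thus the mixture of these 10 transcripts differed between the genotypes, with Ets1 first of the 10 in both. Outside the 10, the ETS gene Spib had 9.15 RPKM in WT and 39.0 RPKM in Mek1/2-tKO, above Ets1 there.

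**Figure D3:**
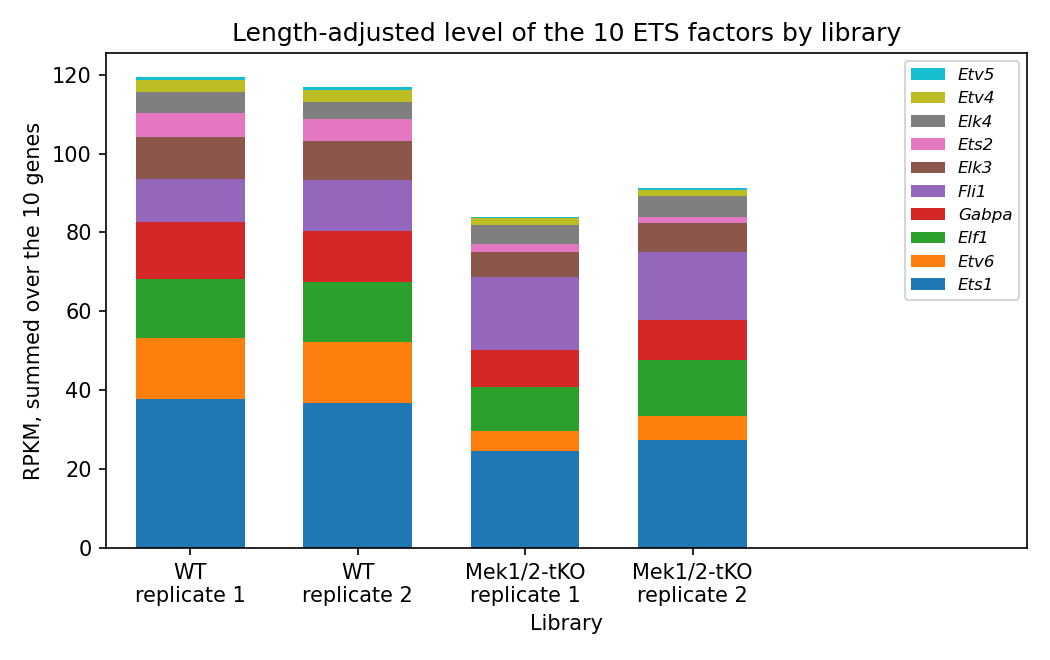
RPKM of the 10 ETS factors stacked for each library, on a linear axis from 0. The stacks reach 119 and 117 in WT and 84.0 and 91.3 in Mek1/2-tKO, and the Etv6 part shrinks while the Fli1 part widens.

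Ratios of related or partner genes within a library do not depend on the scaling between libraries. The log2 ratio of Ets2 to Ets1 counts was -3.20 and -3.31 in WT and -4.12 and -4.61 in Mek1/2-tKO, a difference of -1.10. Elk3 exceeded Elk4 in both WT libraries (0.52 and 0.70) and did not in the Mek1/2-tKO libraries (-0.13 and -0.014), a difference of -0.68. For Gabpa over Gabpb1, the gene of its activating partner, the ratio went from 0.20 and 0.13 to -0.24 and 0.0066. These 3 pairs were apart between the genotypes. Over Gabpb2, a second partner gene that was added after the data were seen and was not tested, the ratio of Gabpa went the other way, from -0.23 and -0.44 in WT to 0.16 and -0.029 in Mek1/2-tKO. The ratio of Etv5 to Etv4 was -1.60 and -1.59 in WT and -1.76 and -1 in Mek1/2-tKO, where the libraries overlapped. Of 4 pairs compared, the first 3 had a two-sided exact permutation p = 0.333, the smallest that 2 libraries against 2 allow (adjusted p = 0.444 over the 4 pairs by permutation), and Etv5 over Etv4 had an exact permutation p = 1.

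**Figure D4:**
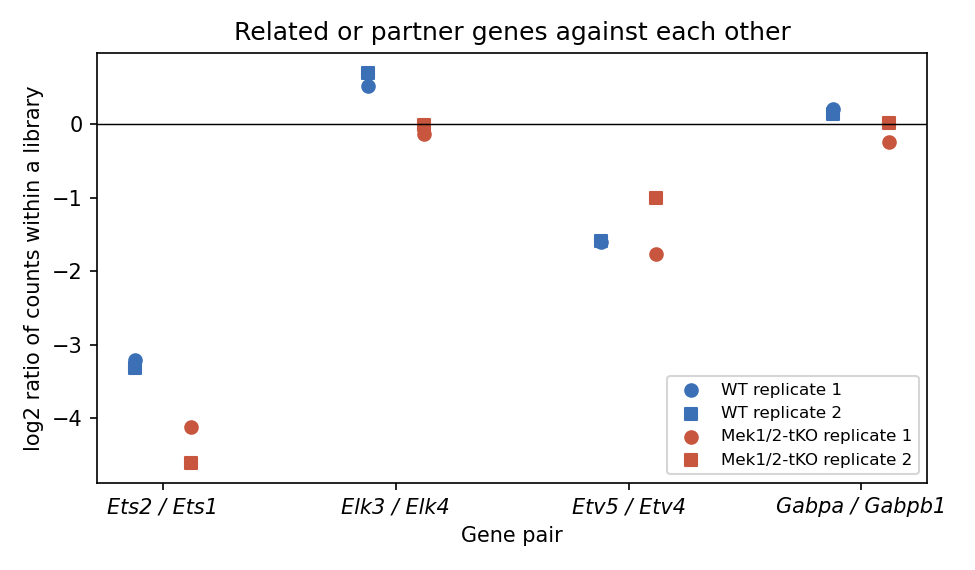
Log2 ratio of the counts of 2 genes within each library, for Ets2 over Ets1, Elk3 over Elk4, Etv5 over Etv4 and Gabpa over Gabpb1. The Mek1/2-tKO libraries lie below the WT libraries for 3 pairs and on both sides of them for Etv5 over Etv4.

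The other 16 ETS genes were read in the same way, and 9 of them were tested. Called higher were Spi1, Spib, Spic and Etv3, and called lower was Erf, where 19.3% of all tested genes were called higher and 16.4% lower. Spi1, which encodes PU.1 of myeloid and B cells, had 12.9 and 10.3 CPM in WT and 55.8 and 61.3 CPM in Mek1/2-tKO. Its relative Spib, a B-cell factor, had 26.9 and 25.6 CPM in WT and 110 and 113 CPM in Mek1/2-tKO. Both were higher, as were most B-lineage markers and the tested myeloid, NK-cell, CD8 and gamma-delta markers. A link of these lists to Spi1 or Spib was not tested. Spic had 2 and 0 counts in WT and 1.23 and 1.17 CPM in Mek1/2-tKO. Erf, a repressor that leaves the nucleus when ERK phosphorylates it, changed by -0.77 on the log2 scale (standard error 0.11, edgeR adjusted p = 5.43e-05), and Etv3, a repressor related to it, by 0.81 (standard error 0.10, edgeR adjusted p = 1.56e-05). Elk1, the best known ternary complex factor, had a value of -0.54 on the log2 scale (standard error 0.17, edgeR adjusted p = 0.016), under the fold change threshold. The median of the 9 tested genes was -0.13, beside -0.56 for the 10 factors above, a difference that was not tested.

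The counts called in the next lists stand beside 16.4% of all tested genes called lower and 19.3% called higher. Among 11 partners of ETS proteins on DNA, 3 were lower (Runx3, Mrtfb and Gabpb2) and 1 higher (Runx2). Runx3, whose family binds next to ETS1 on T-cell enhancers, had the largest decrease of them, at a log2 fold change of -1.16 (standard error 0.10, edgeR adjusted p = 5.66e-07). For Srf, the partner of ELK3 and ELK4, it was -0.35 (standard error 0.093, edgeR adjusted p = 0.00619), which passed the p threshold only. In the ERK cascade 4 of 14 genes were lower (Ksr1, Map2k1, Rps6ka3 and Rps6ka1). This list includes the targeted genes Map2k1, which is among the lower genes, and Map2k2, which was not called. Of 20 genes known to follow ERK activity, 10 were lower and 4 higher, with a median log2 fold change of -0.63. The largest decreases were those of Spry1, Fosl2, Spred2 and Dusp4, and the 4 higher genes were Spry2, Ier3, Fosl1 and Mcl1. Of 8 lymphocyte genes with long-studied ETS sites, 4 were lower (Cd4, Il2, Trac and Il2ra) and 2 higher (Csf2 and Cd79a). Il7r and Il2rb of the same list were not called. Cd4, Trac and Cd79a are also cell type markers, so that this count moves with the marker lists given above.

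Promoter sequences are shown for the decreased Etv6 and Elk3 and for Elk4, which did not pass, because they were searched for the sites that ETS factors, AP-1 and SRF read. RefSeq (GRCm38.p6) gave 11 windows of 300 bases, from 250 before to 50 after a start site, for 7 of the 10 genes. Ets1, Fli1 and Etv4 had no window. The sequences are printed 5′ to 3′ on the strand of the gene, for the bases before the gene's first base in the count tables, and capitals mark matches to the motif CGGAAGT or its core GGAAGT. They are chr6:134035450-134035699 (plus strand) for Etv6, chr10:93311160-93311409 (minus strand) for Elk3 and chr1:132007370-132007606 (plus strand) for Elk4.
Etv6: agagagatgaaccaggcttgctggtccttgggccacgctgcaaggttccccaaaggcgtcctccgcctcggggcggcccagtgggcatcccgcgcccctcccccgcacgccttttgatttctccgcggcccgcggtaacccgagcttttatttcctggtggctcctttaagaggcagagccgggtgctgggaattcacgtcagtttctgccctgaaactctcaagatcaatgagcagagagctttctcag
Elk3: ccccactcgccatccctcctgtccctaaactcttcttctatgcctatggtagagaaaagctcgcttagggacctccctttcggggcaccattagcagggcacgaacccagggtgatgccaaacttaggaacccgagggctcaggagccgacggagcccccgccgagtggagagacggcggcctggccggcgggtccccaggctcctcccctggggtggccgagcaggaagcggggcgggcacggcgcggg
Elk4: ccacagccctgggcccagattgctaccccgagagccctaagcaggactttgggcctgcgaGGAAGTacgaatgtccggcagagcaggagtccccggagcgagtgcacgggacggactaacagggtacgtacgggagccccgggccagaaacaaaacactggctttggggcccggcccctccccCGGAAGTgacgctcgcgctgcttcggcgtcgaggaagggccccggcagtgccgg
The ETS motif CGGAAGT was present, on either strand, in 1 of the 7 genes (Elk4, bases -67 to -61 from the start site), and in 6.42% of all 32851 promoter windows, or 7.2% of all genes with a window. Its shorter core GGAAGT, which lies within that motif and was added after the sequences had been read, was found in 4 of the 7 (Elk4, Elf1, Etv5 and Gabpa) and in 23.8% of all windows, or in 26.5% of all genes with a window. The AP-1 motif TGANTCA was present in 1 (a second start site of Elf1) and in 7.81% of all windows, or 8.97% of genes. The CArG box of SRF was in none of them and in 1.63% of all windows, or 1.81% of genes. Among the decreased factors, Ets2, Etv6 and Elk3 held no match to these motifs in their windows, which says nothing of binding elsewhere. The decreased Etv4 could not be searched. GGAAGT is longer than the GGAA core that ETS factors read. GGAA alone was not searched for, and the printed Etv6 and Elk3 bases hold it in lower case.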

How the data were processed

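Raw counts of 4 RNA-seq libraries were analysed, 2 from WT and 2 from Mek1/2-tKO cells. The libraries were made with a stranded kit. The submitters' processing notes name Trimmomatic 0.36, featureCounts (Subread 1.5.1) and GRCm38. The authors trimmed the reads, mapped them (the methods spell the aligner STRA), kept unique hits and deposited whole-number counts per gene, not normalized. The annotation release and the strand setting are not given in the sources used here. Lengths are the authors' exon lengths. Symbols were matched to 54723 of 54752 identifiers.

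Counts were filtered (filterByExpr), scaled by TMM and tested with edgeR 4.0.16 (R 4.3.3, robust quasi-likelihood test, p adjusted by Benjamini-Hochberg over all genes tested), without a replicate block. Standard errors are the log2 fold change over the square root of F. Alternatives were DESeq2 1.42.0, 2 other scalings, 2 other filters, a replicate block, other fold change thresholds and leaving out each library. The replicates of a genotype differed by more than sampling noise (a chi-square of 4.19 a gene for WT, and 10.9 for Mek1/2-tKO). The test was tested on simulated data with 200 changed genes and the same dispersion for every gene. That setting lacks the unequal spread given above, so it does not check the calls made here. Python 3.11.15 was used for ratios, motifs and figures.

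The members, the lists and the tests were chosen with earlier results of these data known. Named are the 10 factors, the targeted genes, every called gene among the other ETS genes, in the other lists at most 4 called genes in each direction, at most 3 abundant markers a list, and the 3 genes with the profile nearest to the most changed factor. Further genes named (Elk1, Srf, Il7r, Il2rb, Fcer2a, Adgre1 and S100a8) were chosen after their values were seen. Protein sequences were not used here, and 1 gene of the ERK cascade list is not reported here.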

Additional observations from a re-analysis of the deposited data

How the results depend on the processing

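Against 2768 higher and 2355 lower genes over the whole table, counts moved by over 1.5 times only with a fold change threshold of 2 (1725 higher, 1040 lower) and, for lower genes, with no fold change threshold (3903). With a library left out they ranged from 2338 to 2791 higher and from 2119 to 2627 lower, and a group of 1 library was then assumed to vary like the other. Of the 10 factors, 3 to 6 were lower over all settings. None was higher except Fli1, so that 1 was higher with a minimum of 10 counts in every library, with a replicate block and with no fold change threshold, and 0 to 1 were with a library left out. The sign of Elk4 turned with library size scaling (-0.011), and it ranged from -0.060 to 0.22 with a library left out. With a library left out, the difference in log2 ratio ranged from -0.17 to 0.60 for Etv5 over Etv4, from -1.35 to -0.86 for Ets2 over Ets1, from -0.77 to -0.59 for Elk3 over Elk4 and from -0.41 to -0.16 for Gabpa over Gabpb1. With Gabpb2 in place of Gabpb1, chosen after seeing the data, the difference was 0.40 against -0.28. Libraries with the same replicate number did not deviate together (correlation -0.0242 across genes), and the replicate block gave 2652 higher and 2300 lower genes and changed no other call among the 10 factors than that of Fli1 (0.59). Etv5 had 23 to 64 counts a library and ranged from -1.11 to -0.55 with a library left out, and what limits its test was not tested.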

Other observations

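The genes whose CPM over the 4 libraries, on the log2 scale and less their own mean, lay nearest to Ets2 among 14038 genes with counts in every library were Gm9256, Slc36a4 and Gm21092, at Euclidean distances of 0.039, 0.044 and 0.107. With 4 libraries in 2 genotypes such a likeness is weak, and 39 genes lay within 0.25 of Ets2.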
